A study of Homo sapiens with 30 samples.

Results

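The genes described here are 10 members of the BCL2 family: the anti-apoptotic MCL1, BCL2, BCL2L1, BCL2L2 and BCL2A1, the effector BAK1, and the BH3-only genes BCL2L11, BMF, BIK and BID. They were taken as every probe set of the array that the platform annotation gives exactly 1 symbol, that of the gene. This gave 11 probe sets of 67528, with 2 for BCL2L11 and 1 for each other gene, and 10 genes of the 22465 that have such a probe set. The choice leaves out family members commonly listed as p53 targets, such as BAX, BBC3 and PMAIP1.

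RNA was hybridised, after biotin labelling, to HTA 2.0 microarrays, which cover the human transcriptome, in 5 established cell lines. In each line 3 arrays came from cells given elraglusib (9-ING-41), a small-molecule inhibitor of the kinase GSK-3, at 1 µM for 24 h, and 3 from cells given DMSO, its solvent, for the same 24 h. The dose of 1 µM is that of the study's figure legends, whereas its text names IC-50 concentrations. Whether every line had the same dose is therefore not settled. HCT-116, HT-29 and KM12C are colorectal cancer lines, whereas NK-92 is a natural killer cell line and TALL-104 a leukemic T cell line, both of which were grown with IL-2 under either treatment. Each line is a single cell population, and the labels call the arrays biological replicates without saying that they came from separate cultures, so every p-value here measures only the spread between these arrays.

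BCL2 family proteins decide whether the outer mitochondrial membrane stays closed. Effectors such as BAK1 open it and release cytochrome c, anti-apoptotic members hold the effectors in check, and BH3-only proteins either occupy the anti-apoptotic members or engage the effectors directly. MCL1 protein is short-lived and GSK-3 is one of the kinases that mark it for degradation, so its RNA and its protein need not move together, and only RNA was measured here.

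EPCAM and PTPRC separated the colorectal from the cytotoxic lines, other markers did not all follow the labels, and 1 array stood apart. EPCAM stood between 13.98 and 15.27 on the log2 scale in the colorectal lines and the leukocyte gene PTPRC between 3.78 and 4.34, while PTPRC was 13.61 or more in NK-92 and TALL-104 arrays. The library labelled TALL-104 DMSO replicate 2 had 3.70 for CD3D and 4.24 for CD3G, T cell receptor subunits that stood between 13.96 and 16.35 in the other 5 TALL-104 arrays, and 9.45 for the natural killer receptor KLRD1, which was 4.25 or lower in them. Its correlation over probe sets with a mean above 6 was 0.99 with the NK-92 arrays and 0.87 with the TALL-104 arrays. The level of 7 of the 10 genes in it fell within the range of the 6 NK-92 arrays, and that of 1 gene, BAK1, within the range of the other 5 TALL-104 arrays, a range that overlaps that of NK-92. Comparisons that use TALL-104 arrays are therefore given with and without this library. Fits and correlations over all 30 arrays include it. Several markers went against the labels. The other TALL-104 arrays were low for the T cell genes CD8A, at 6.62 or less, CD8B, at 4.11 or less, and CD2, at 5.60 or less, whereas NK-92 had 10.63 to 10.95 for CD2 and 13.22 to 13.51 for the T cell receptor subunit CD3E. CD7 and FCER1G, listed as natural killer markers, were higher in the other TALL-104 arrays (medians 11.07 and 16.75) than in NK-92 (5.69 and 6.61). Of the intestinal markers, VIL1 and LGALS4 were at most 4.48 in HCT-116, CDX2 at most 4.35 in HT-29, and KRT20 at most 6.31 in HCT-116 and 5.41 in KM12C. The array medians over all probe sets lay between 4.23 and 4.60. The methods of the study say that the arrays were run in more than 1 batch with randomised samples and that RNA was extracted in batches of 6. Which array was in which batch is not in the labels, so a batch effect was not tested.

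Promoter sequences were taken for the BH3-only genes BCL2L11 and BMF, both of which fell in HT-29, and for BCL2A1, whose signal was near the array medians in the colorectal lines and higher in the cytotoxic ones. They are the 250 bases before a RefSeq start, the only one in the table for BCL2L11 and BCL2A1 and the first of 2 for BMF, on GRCh38.p14, 5′ to 3′, with the letters of any searched motif in capitals. They stand at chr2:111120664-111120913 on the plus strand for BCL2L11, at chr15:40108880-40109129 on the minus strand for BMF, and at chr15:79971197-79971446 on the minus strand for BCL2A1.
BCL2L11: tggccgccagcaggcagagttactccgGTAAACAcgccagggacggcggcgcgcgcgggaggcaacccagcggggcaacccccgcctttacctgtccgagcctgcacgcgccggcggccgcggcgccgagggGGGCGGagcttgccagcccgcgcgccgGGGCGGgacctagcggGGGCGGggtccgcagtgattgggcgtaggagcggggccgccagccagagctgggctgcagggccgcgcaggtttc
BMF: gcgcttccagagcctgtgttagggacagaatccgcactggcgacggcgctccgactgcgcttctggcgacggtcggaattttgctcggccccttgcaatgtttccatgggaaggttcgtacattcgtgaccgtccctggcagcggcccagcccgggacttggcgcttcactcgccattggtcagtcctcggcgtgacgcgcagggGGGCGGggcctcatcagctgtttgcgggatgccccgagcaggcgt
BCL2A1: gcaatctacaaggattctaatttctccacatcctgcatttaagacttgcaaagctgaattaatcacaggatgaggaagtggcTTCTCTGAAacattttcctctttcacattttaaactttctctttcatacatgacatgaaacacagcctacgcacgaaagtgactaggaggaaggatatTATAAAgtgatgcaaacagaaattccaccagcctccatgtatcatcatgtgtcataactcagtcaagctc

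The search covered 8 short motifs on both strands in 7 of the 10 genes, over 13 starts. MCL1, BCL2L2 and BIK had no entry in the RefSeq promoter table used. BCL2L11 held the forkhead (FOXO) letters GTAAACA, which 2.98% of 35116 promoters of this length hold, and 3 copies of the GC box GGGCGG, which 42.6% hold. BMF held 1 GC box at the printed start, and the GC boxes of both genes lay on the plus strand of the printed sequence. BCL2A1 held the STAT letters TTCNNNGAA (6.57% of promoters) and the TATA box TATAAA (10.7%). Its bases were 38.8% G or C, against 76.8% in BCL2L11, 65.2% at the printed start of BMF and a median of 58% over all promoters. The other BMF start, whose 250 bases are at chr15:40106967-40107216, had 48.8% and held none of the motifs. None of the 7 genes held the κB motif (1.73% of promoters). E2F letters TTTNNCGC (5.92%) were found upstream of BCL2L1, the TCF/LEF letters CTTTGAT (2.26%) upstream of BAK1, and the E-box CACGTG (6.34%) upstream of BID. The E-box reads the same on both strands and was counted once. In the printed sequences no motif overlapped another. These matches describe letters only, and no binding was measured.

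In HT-29 cells 3 of the 10 genes fell under elraglusib and none rose. The anti-apoptotic MCL1 and the pro-apoptotic BCL2L11 and BMF each lost between 0.49 and 0.63 on the log2 scale. In HCT-116, KM12C, NK-92 and TALL-104 no member passed the limma test at an adjusted p under 0.05 over all probe sets. Over all 67528 probe sets that test called 8.01% in HT-29, where 3.39% were called as lower with elraglusib, 1.15% in HCT-116, 1.5% in KM12C, and 0 in NK-92 and TALL-104, which was also 0 without the library labelled TALL-104 DMSO replicate 2. The unadjusted p was under 0.05 for 4 members in HCT-116, 3 in HT-29, 3 in KM12C and 0 in both cytotoxic lines. Of all 67528 probe sets it was under 0.05 for 8612 in HCT-116, 12508 in HT-29 and 11808 in KM12C. In NK-92 it was so for 2934, and in TALL-104 for 3280, or 3455 without the library labelled DMSO replicate 2.

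**Figure D1:**
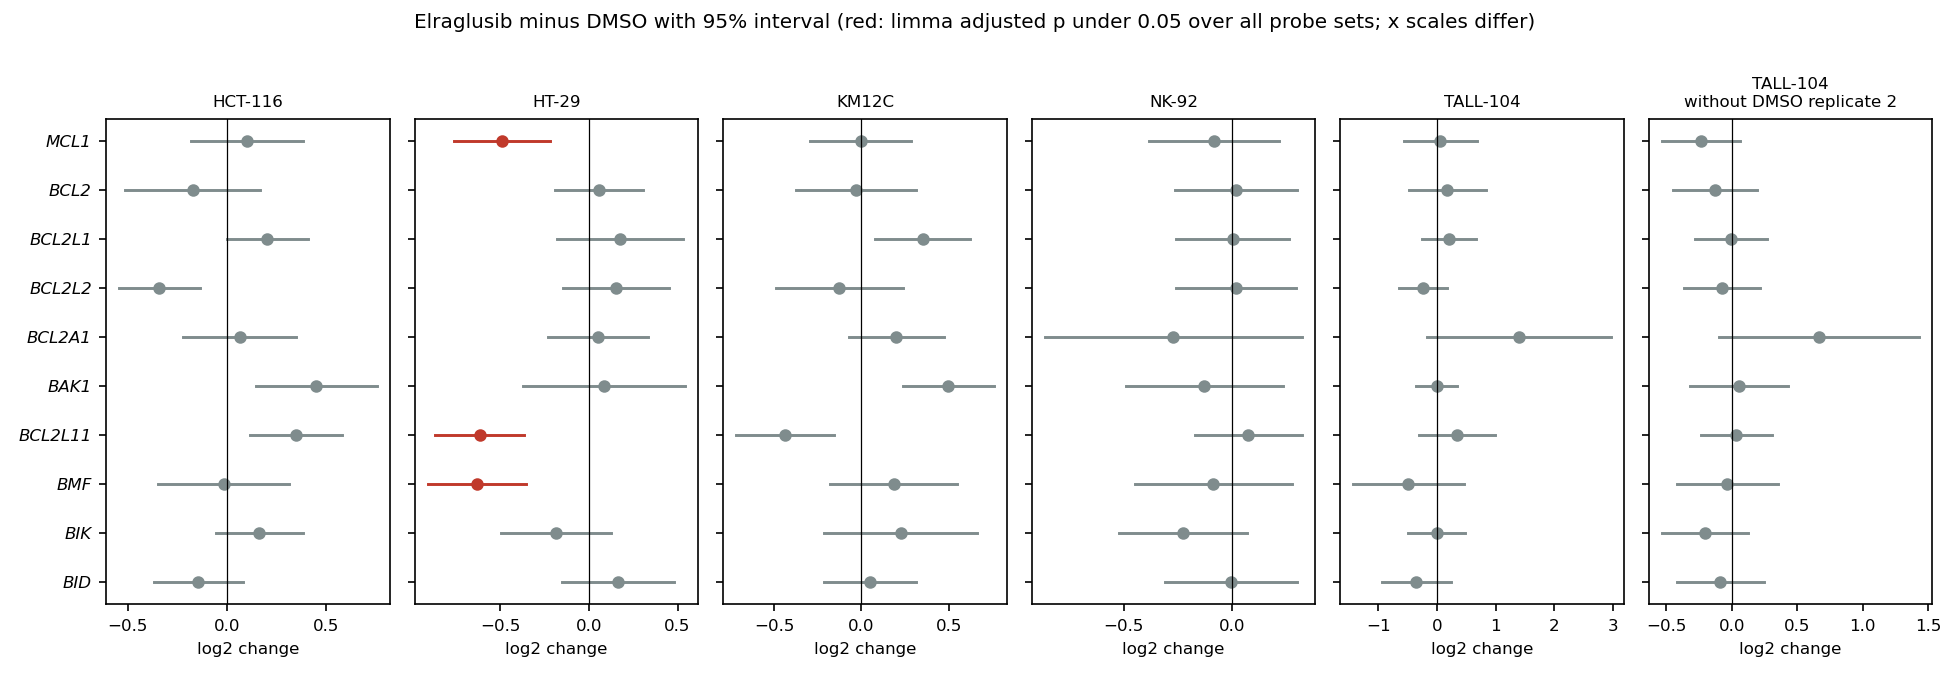
Change of each gene under elraglusib, as elraglusib minus DMSO on the log2 scale (x axis, its scale differs between panels), in each cell line and, in the last panel, in TALL-104 without the library labelled DMSO replicate 2. Points are mean differences of 3 against 3 arrays (3 against 2 in the last panel), lines the 95% intervals of limma, and red marks the 3 genes called in HT-29, MCL1 at -0.49, BCL2L11 at -0.62 and BMF at -0.63.

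MCL1 binds and holds back BAK1 and several BH3-only proteins. In HT-29 its log2 signal was 11.65, 11.85 and 11.84 with elraglusib, against 12.27, 12.38 and 12.17 with DMSO. All elraglusib arrays lay below all DMSO arrays, with a gap of 0.32 between the nearest. The difference was -0.49 (SE 0.12, limma adjusted p = 0.0382), a ratio of 0.710. The call held in 1 of the 6 fits that left out an array each, where the adjusted p ranged from 0.0421 to 0.134, and was lost with the replicate number as a block (adjusted p = 0.0658) or in one fit over all 30 arrays (0.0665). That last fit includes the library labelled TALL-104 DMSO replicate 2, and in a fit over 29 arrays without it the call was kept.

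In the other lines the arrays of both treatments overlapped for MCL1, except in TALL-104 once the library labelled DMSO replicate 2 was left out. In HCT-116 it was 12.30, 12.06 and 12.13 with elraglusib and 11.91, 12.25 and 12.03 with DMSO, and in KM12C 12.22, 12.43 and 12.32 with elraglusib and 12.39, 12.43 and 12.16 with DMSO. The arrays overlapped in both lines, with differences of 0.10 (95% interval -0.18 to 0.38) and -0.00 (-0.29 to 0.28). In NK-92 MCL1 was 13.19, 12.93 and 12.81 with elraglusib and 12.95, 13.15 and 13.08 with DMSO, again overlapping. In TALL-104 it was 13.56, 13.51 and 13.35 with elraglusib, against 13.73 and 13.69 with DMSO and 12.84 in the library labelled DMSO replicate 2. That library turned the direction, since the difference was 0.05 with it and -0.24 (95% interval -0.54 to 0.06) without it, neither passing the test.

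BCL2L11 encodes BIM, a BH3-only protein that binds all anti-apoptotic members and can engage the effectors. In HT-29 its higher-signal probe set read 6.75, 6.77 and 6.90 with elraglusib, against 7.44, 7.48 and 7.35 with DMSO. The groups were separated by 0.45 at the nearest arrays. The difference of -0.62 (SE 0.11, limma adjusted p = 0.00964, ratio 0.652) held in all 6 fits that left out an array, with adjusted p from 0.0168 to 0.0497.

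KM12C had the same direction and HCT-116 the opposite. In KM12C the probe set read 6.94, 6.88 and 7.07 with elraglusib, against 7.48, 7.47 and 7.25 with DMSO. The groups did not overlap, but the difference of -0.44 (SE 0.12) did not pass the test (adjusted p = 0.123). Without KM12C DMSO replicate 3, the lowest of the controls, it was -0.51 with an adjusted p of 0.0340. That was the only call in the 6 fits that left out an array, where the adjusted p reached 0.381. In HCT-116 the probe set read 7.81, 7.63 and 7.71 with elraglusib, against 7.25, 7.42 and 7.43 with DMSO. Here all elraglusib arrays were the higher ones, by 0.35 on average (SE 0.10), which did not pass the test either (adjusted p = 0.172).

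In the cytotoxic lines the arrays of both treatments overlapped for this probe set. NK-92 had 6.95, 6.85 and 6.78 with elraglusib and 6.72, 6.74 and 6.89 with DMSO, an overlap with a difference of 0.08 (95% interval -0.17 to 0.32). TALL-104 had 7.79, 7.80 and 7.87 with elraglusib, against 7.81 and 7.76 with DMSO and 6.86 in the library labelled DMSO replicate 2. With that library the difference was 0.34, and without it 0.04 (95% interval -0.24 to 0.31).

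The lower-signal probe set of BCL2L11 went the other way in HT-29. It read 5.10, 5.16 and 5.14 with elraglusib, against 4.22, 4.94 and 4.62 with DMSO, a difference of 0.54 (SE 0.18) that did not pass the test (adjusted p = 0.116). In KM12C it read 5.12, 4.84 and 5.29 with elraglusib, against 4.81, 4.76 and 4.77 with DMSO, a difference of 0.30 (adjusted p = 0.304). In HCT-116 the groups overlapped, at 4.61, 4.46 and 4.06 with elraglusib and 4.64, 4.20 and 4.40 with DMSO. The arrays of both treatments overlapped in NK-92 too, and in TALL-104 they overlapped with the library labelled DMSO replicate 2 and were apart without it, by 0.20 on average (adjusted p = 0.926). All values of this probe set lay between 4.06 and 5.29, near the array medians. What part of the gene each probe set covers is not known here. The fall of BCL2L11 in HT-29 was measured by 1 of its 2 probe sets.

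**Figure D2:**
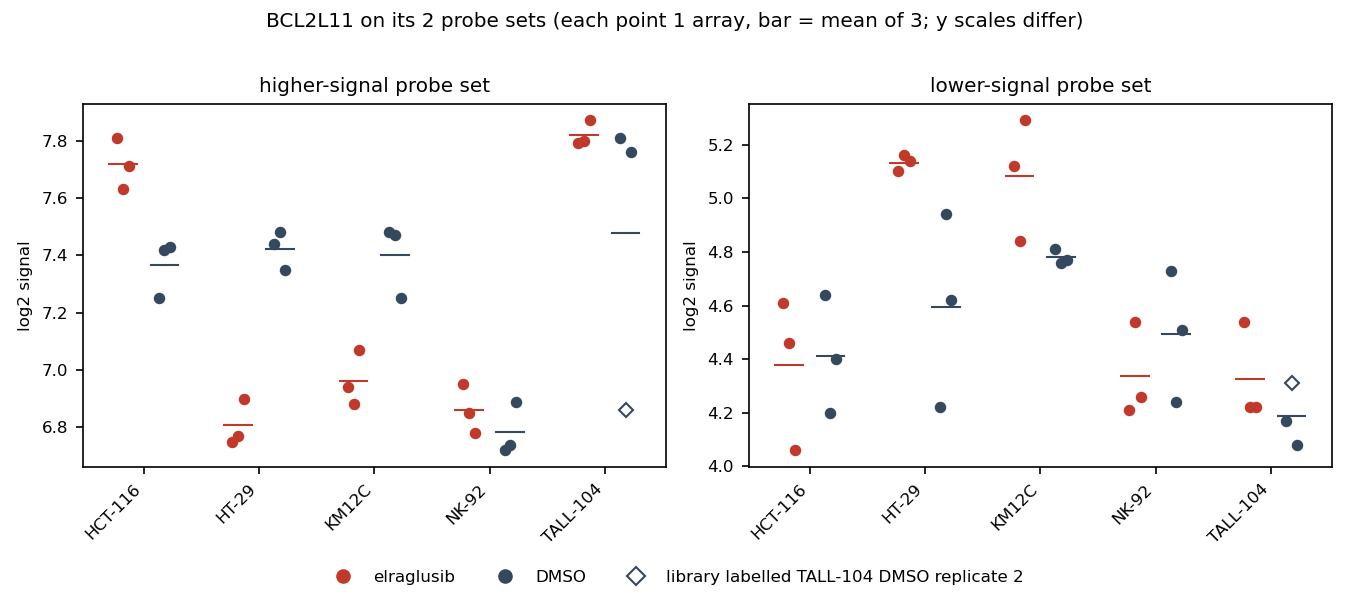
Log2 signal of the 2 BCL2L11 probe sets (y axis, its scale differs between panels) in each cell line, with elraglusib in red left of DMSO in dark blue. Each point is 1 array and each bar the mean of 3, and the open diamond is the library labelled TALL-104 DMSO replicate 2. In HT-29 the higher-signal set stood at 6.75 to 6.90 with elraglusib and 7.35 to 7.48 with DMSO, while the lower-signal set stood at 5.10 to 5.16 and 4.22 to 4.94.

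BMF encodes a BH3-only protein held at the cytoskeleton in unstressed cells. In HT-29 it read 5.88, 5.61 and 5.66 with elraglusib, against 6.34, 6.27 and 6.44 with DMSO. All elraglusib arrays were lower, by 0.39 at the nearest pair. The difference was -0.63 (SE 0.12, limma adjusted p = 0.0137, ratio 0.645). It lost the call without elraglusib replicate 2 (adjusted p = 0.0669) and without DMSO replicate 1 (0.0514), and held in the other 4 such fits. It was also lost in one fit over all 30 arrays (0.125), but kept in the fit over 29 arrays without the library labelled TALL-104 DMSO replicate 2.

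BMF overlapped between treatments in the other lines. In HCT-116 it was 5.32, 5.70 and 5.39 with elraglusib and 5.64, 5.28 and 5.54 with DMSO, and in KM12C 5.74, 5.27 and 5.51 with elraglusib and 5.16, 5.28 and 5.53 with DMSO. The differences were -0.02 and 0.18. In NK-92 it was 8.45, 8.25 and 7.91 with elraglusib and 8.36, 8.37 and 8.14 with DMSO. In TALL-104 it was 7.10, 7.12 and 7.37 with elraglusib, against 7.39 and 7.07 with DMSO and 8.59 in the library labelled DMSO replicate 2, so that the difference was -0.49 with it and -0.03 without it.

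The colorectal lines were then compared in their response, by testing the differences between their changes over the 18 colorectal arrays. BCL2L11 and BMF changed unequally among the 3 lines (limma F test, adjusted p = 0.000488 and 0.0438), 2 of 10 genes where 6.47% of all probe sets passed. For BCL2L11 this holds for the higher-signal probe set, and the lower-signal one did not pass (adjusted p = 0.365). MCL1 did not pass this test (adjusted p = 0.0627). BCL2L11 held in all 18 fits that left out an array each, BMF in 7 and MCL1 reached it in 2. BMF also lost the call with the replicate number as a block (adjusted p = 0.139) and in one fit over all 30 arrays (0.379), where BCL2L11 kept it (0.0173 and 0.0148). The fit over all 30 arrays includes the library labelled TALL-104 DMSO replicate 2.

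Between pairs of lines, the change of BCL2L11 on its higher-signal probe set in HT-29 was 0.97 below that in HCT-116 (95% interval -1.26 to -0.68, limma adjusted p = 0.000249), and its change in KM12C was 0.79 below that in HCT-116 (-1.08 to -0.50, adjusted p = 0.00686). HT-29 and KM12C differed by -0.18 (-0.47 to 0.11) for this gene. Both differences from HCT-116 were called in all 18 fits with an array left out. The lower-signal probe set had the opposite sign in both, at 0.58 for HT-29 minus HCT-116 (0.05 to 1.10, adjusted p = 0.244) and 0.34 for KM12C minus HCT-116 (-0.18 to 0.86, adjusted p = 0.594), and neither passed. The change of MCL1 in HT-29 was 0.59 below that in HCT-116 (-0.94 to -0.25, adjusted p = 0.0388, called in 8 of the 18 fits), and its difference of -0.49 from KM12C did not pass (adjusted p = 0.124). The change of BMF in HT-29 was 0.82 below that in KM12C (-1.25 to -0.39, adjusted p = 0.0356, called in 10 of the 18 fits), while the difference of -0.62 from HCT-116 did not pass (adjusted p = 0.100). The background was 5.79% of probe sets for HT-29 minus HCT-116, where 2 members were called, 1.48% for KM12C minus HCT-116, where 1 was, and 3.36% for HT-29 minus KM12C, where 1 was. These 3 comparisons share arrays with each other.

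**Figure D3:**
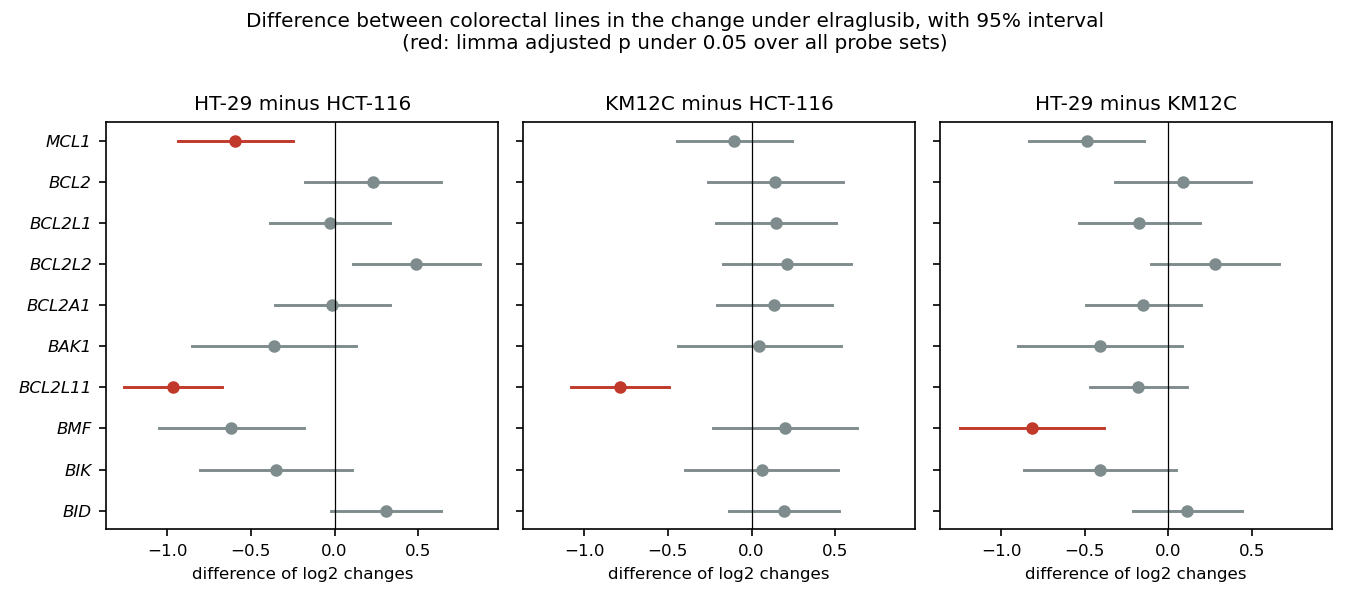
Difference between colorectal lines in the change under elraglusib (x axis, on the log2 scale), for each gene. Points are the differences of the 2 lines' elraglusib minus DMSO values, lines are 95% intervals of limma over 18 arrays, and red marks those called, among them BCL2L11, on its higher-signal probe set, at -0.97 for HT-29 minus HCT-116 and -0.79 for KM12C minus HCT-116.

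Among the other anti-apoptotic genes no change was called in a colorectal line. BCL2L1, which encodes BCL-XL, was higher in the mean with elraglusib in all 3 lines, at 9.67 ± 0.07 with elraglusib and 9.46 ± 0.03 with DMSO in HCT-116, 9.88 ± 0.24 and 9.70 ± 0.18 in HT-29, and 9.57 ± 0.07 and 9.22 ± 0.13 in KM12C (SD, n = 3 each). The arrays were apart in HCT-116 and KM12C and overlapped in HT-29, and the smallest limma adjusted p was 0.188, in KM12C. BCL2L2, which encodes BCL-W, was 6.81, 6.75 and 6.81 with elraglusib and 7.06, 7.15 and 7.18 with DMSO in HCT-116. The arrays did not overlap, but the difference of -0.34 (SE 0.09) was not called (limma adjusted p = 0.132), although it passed after quantile normalization of the arrays (adjusted p = 0.0455) and when only 1 probe set per gene was fitted (0.0300). It was called in 0 of the 6 fits that left out an array (adjusted p from 0.181 to 0.367). BCL2L2 differed by 0.15 in HT-29 and -0.13 in KM12C, with overlapping arrays.

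BCL2, the founding member, and BCL2A1, a gene mostly active in blood cells, were low in the colorectal lines under both treatments. BCL2 averaged 5.98 with elraglusib and 6.15 with DMSO in HCT-116, 5.00 and 4.94 in HT-29, and 5.94 and 5.97 in KM12C, with overlap in each line. BCL2A1 stayed between 3.82 and 4.33 in all 18 colorectal arrays, near the medians of all probe sets. Its differences were 0.06, 0.05 and 0.20 in HCT-116, HT-29 and KM12C.

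BAK1, whose protein forms the pores in the mitochondrial membrane, was the effector in the set. In KM12C it read 7.22, 7.33 and 7.23 with elraglusib, against 6.75, 6.67 and 6.87 with DMSO. In HCT-116 it read 7.02, 7.02 and 6.98 with elraglusib, against 6.62, 6.76 and 6.29 with DMSO. All elraglusib arrays were higher in both lines, by 0.50 (SE 0.11) and 0.45 (SE 0.13) on average, but neither passed the limma test, with adjusted p of 0.0752 and 0.181. In KM12C it passed in 1 of the 6 fits that left out an array, the one without DMSO replicate 3, the highest control (adjusted p = 0.0262). Over the 6 fits the adjusted p reached 0.258. In HT-29 the arrays overlapped, at 7.05, 6.98 and 6.44 with elraglusib and 7.04, 6.70 and 6.47 with DMSO. The change of BAK1 in HT-29 was not shown to differ from that in KM12C (difference -0.41, 95% interval -0.90 to 0.08) or HCT-116 (-0.36, -0.85 to 0.13).

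For the other BH3-only genes no difference was called. BIK, whose protein sits at the endoplasmic reticulum, differed by 0.16 in HCT-116, -0.19 in HT-29 and 0.22 in KM12C, and BID, whose protein is activated by cleavage by initiator caspases or granzyme B, by -0.14, 0.16 and 0.05. The lowest adjusted p among these 6 was 0.550. In KM12C the median change of all probe sets was 0.11, and against it BAK1 stood 0.39 higher, BCL2L1 0.24 higher and BCL2L11 0.55 lower.

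As a set the 10 genes had a median change of 0.08 in HCT-116, 0.05 in HT-29 and 0.12 in KM12C, against 0.02, 0 and 0.11 for all probe sets, and 6 of the 10 were higher with elraglusib in each of these lines. Of all 67528 probe sets, 36874 were higher with elraglusib in HCT-116, 33789 in HT-29 and 47637 in KM12C. Counted by the fold of 1.5 with an unadjusted p under 0.05, BCL2L11 and BMF in HT-29 passed, where 8.37% of probe sets did, and no member passed in HCT-116 (2.51% of probe sets), KM12C (5.59%), NK-92 (0.801%) or TALL-104 (1.43%, or 1.2% without the library labelled DMSO replicate 2).

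**Figure D4:**
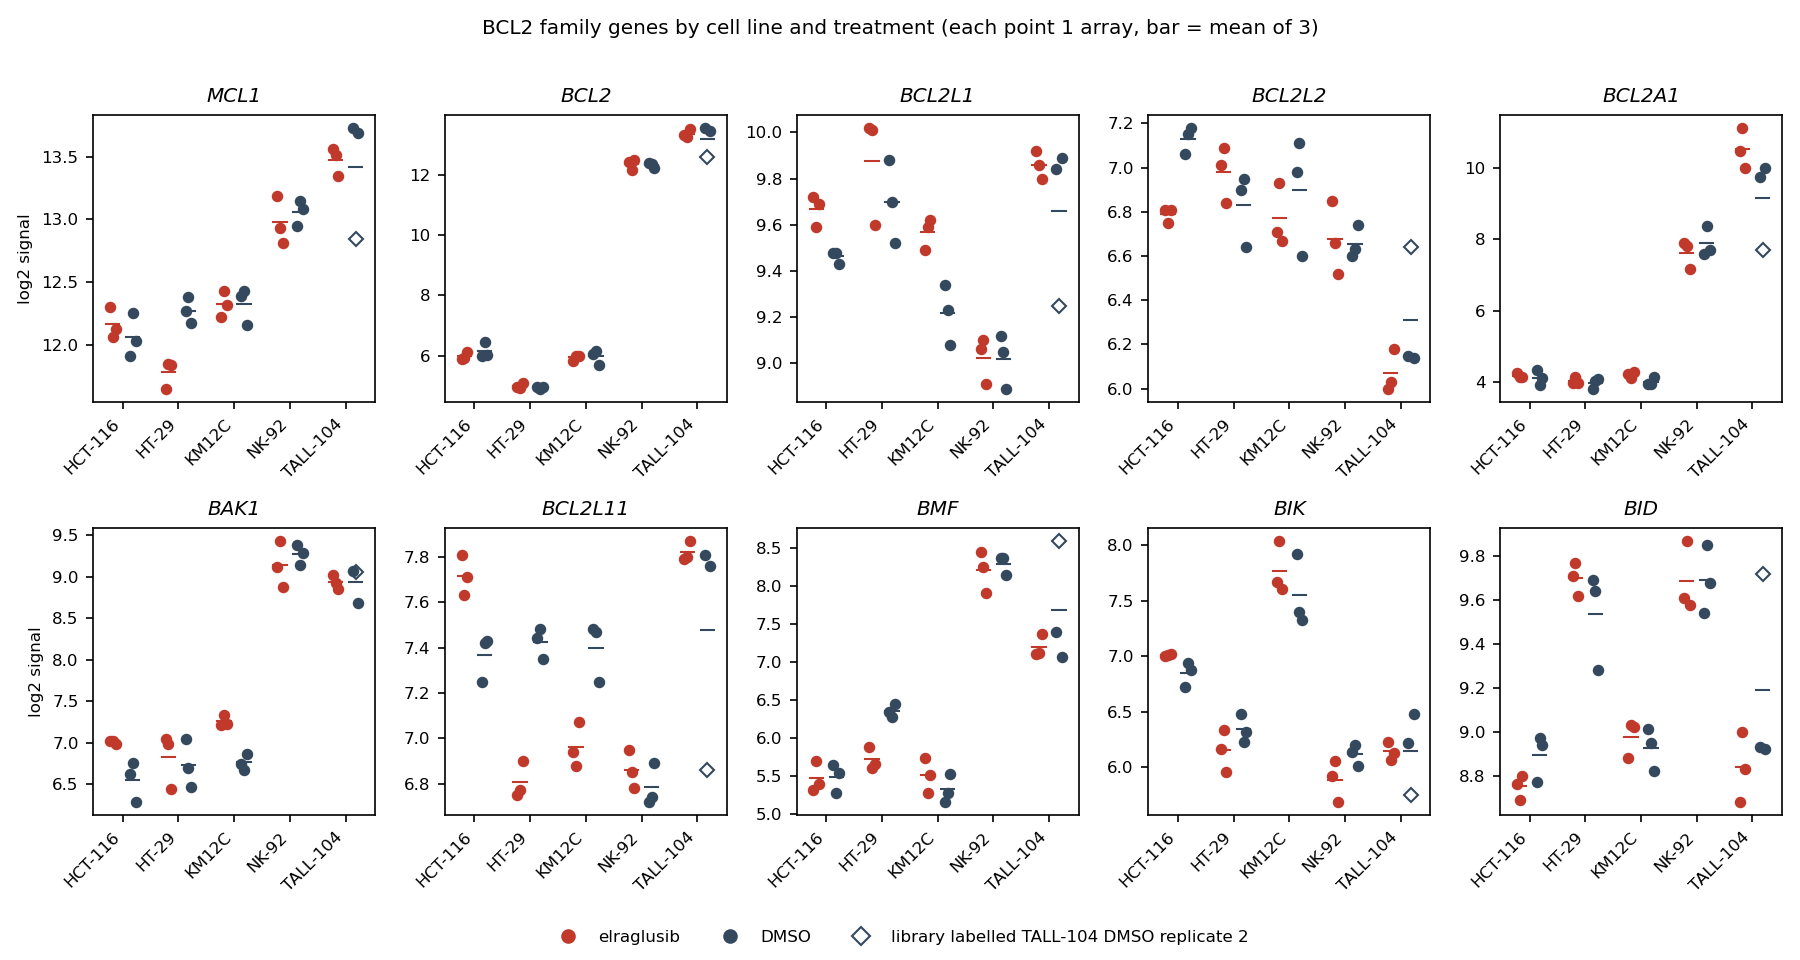
Log2 signal of each gene (y axis, its scale differs between panels) in the 5 cell lines, with elraglusib in red left of DMSO in dark blue. Each point is 1 array, each bar the mean of 3, and the open diamond the library labelled TALL-104 DMSO replicate 2. BCL2 stood between 4.90 and 6.44 in the colorectal arrays and between 12.16 and 13.56 in the cytotoxic arrays. BCL2L11 is drawn by its higher-signal probe set, whose arrays with elraglusib lay above those with DMSO in HCT-116 and below them in HT-29 and KM12C. Of these differences only that in HT-29 was called (limma adjusted p = 0.00964, against 0.172 in HCT-116 and 0.123 in KM12C). The share of all probe sets whose treatments separate was not counted.

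In NK-92 cells no difference was called. The differences ran from -0.27 for BCL2A1 to 0.08 for BCL2L11, each with overlapping arrays, and every limma adjusted p was 1.00 after rounding. BCL2A1 read 7.89, 7.80 and 7.16 with elraglusib and 7.59, 8.36 and 7.71 with DMSO, so that the NK-92 arrays spanned 7.16 to 8.36.

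In TALL-104 cells the largest difference was in BCL2A1. It read 10.48, 11.12 and 10.01 with elraglusib, against 9.75 and 9.99 with DMSO and 7.69 in the library labelled DMSO replicate 2. The highest control was 0.02 below the lowest elraglusib array, so the groups did not overlap. With the library labelled DMSO replicate 2 the difference was 1.39 (SE 0.65, limma adjusted p = 0.823, ratio 2.63), and without it 0.67 (SE 0.31, adjusted p = 0.918, ratio 1.59). That library read within the NK-92 range of 7.16 to 8.36 for this gene. NK-92 and TALL-104 were not shown to differ in their response of BCL2A1, with a difference of -1.66 (adjusted p = 0.912) and, without the library, -0.94 (95% interval -1.92 to 0.05, adjusted p = 0.999). No member and 0% of all probe sets passed limma in this comparison, with or without the library. BCL2A1 was the member with an unadjusted limma p under 0.05 (0.0497), and without the library it had 0.0598.

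The remaining TALL-104 differences ran from -0.49 for BMF to 0.34 for BCL2L11 with the library, and from -0.24 for MCL1 to 0.06 for BAK1 without it. The SE of the 10 genes was 0.14 to 0.65 with it and 0.11 to 0.31 without it. The median change was 0.02 with it, where all probe sets had 0.06, and -0.05 without it, where all had 0.04.

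The levels without treatment were compared between each pair of lines. Of 100 tests of a gene between DMSO arrays of 2 lines, 50 were called with limma, 41 of the 60 between a colorectal and a cytotoxic line, 9 of the 30 between colorectal lines and 0 of the 10 between NK-92 and TALL-104. Without the library labelled TALL-104 DMSO replicate 2 the counts were 49 of 60, 9 of 30 and 8 of 10. In these bulk RNA samples, fewer cells that express a gene and less of its RNA per cell cannot be told apart.

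The number of the 10 genes called is best read against all probe sets. For HCT-116 minus NK-92 it was 10, with 29% of probe sets called, for HT-29 minus NK-92 7 with 27.8%, and for KM12C minus NK-92 8 with 26.7%. For the same lines minus TALL-104 it was 6 with 14.7% (HCT-116), 4 with 13.4% (HT-29) and 6 with 13.4% (KM12C), and without the library labelled DMSO replicate 2 it was 9 with 28.2%, 7 with 26.2% and 8 with 25.3%. For NK-92 minus TALL-104 it was 0 with 0% called and, without the library, 8 with 20.4%. Between colorectal lines it was 4 with 17.7% for HCT-116 minus HT-29, 1 with 16.9% for HCT-116 minus KM12C, and 4 with 15% for HT-29 minus KM12C.

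BCL2 had the widest range of levels of the set, and its cytotoxic and colorectal arrays did not overlap. Its DMSO level was 13.20 ± 0.53 in TALL-104 (13.50 ± 0.08 without the library labelled DMSO replicate 2), 12.33 ± 0.08 in NK-92, 6.15 ± 0.25 in HCT-116, 5.97 ± 0.25 in KM12C and 4.94 ± 0.04 in HT-29 (SD, n = 3 each, 2 without the library). The step from NK-92 to HCT-116 was called (limma adjusted p = 3.22e-08), as was that from KM12C to HT-29 (0.00111), whereas HCT-116 and KM12C were not told apart (0.649). TALL-104 was above NK-92 only without the library (adjusted p = 0.000516, against 0.385 with it).

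BCL2A1 and MCL1 had the same order at the top. BCL2A1 was 9.14 ± 1.26 in TALL-104 (9.87 ± 0.17 without the library), 7.89 ± 0.41 in NK-92 and 3.98 to 4.12 in the colorectal lines, which were not told apart from each other. The step from NK-92 to HCT-116 had an adjusted p of 5.38e-06, and TALL-104 exceeded NK-92 only without the library (0.00190, against 0.430 with it). MCL1 was 13.42 ± 0.50 in TALL-104 (13.71 ± 0.03), 13.06 ± 0.10 in NK-92, 12.33 ± 0.15 in KM12C, 12.27 ± 0.11 in HT-29 and 12.06 ± 0.17 in HCT-116. NK-92 was above KM12C (adjusted p = 0.00226), the colorectal lines were not told apart from each other, and TALL-104 was above NK-92 without the library (0.00669, against 0.588 with it).

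BAK1 and BMF also stood high in the cytotoxic lines, though NK-92 led. BAK1 was 9.27 ± 0.12 in NK-92, 8.94 ± 0.22 in TALL-104 (8.88 ± 0.28 without the library labelled DMSO replicate 2), 6.76 ± 0.10 in KM12C, 6.74 ± 0.29 in HT-29 and 6.56 ± 0.24 in HCT-116, with 1 called step, from TALL-104 to KM12C (limma adjusted p = 0.000161, or 4.36e-05 without that library). BMF was 8.29 ± 0.13 in NK-92, 7.68 ± 0.80 in TALL-104 (7.23 ± 0.23 without the library), 6.35 ± 0.09 in HT-29, 5.49 ± 0.19 in HCT-116 and 5.32 ± 0.19 in KM12C. HT-29 had more of it than HCT-116 (adjusted p = 0.00142). The same HT-29 DMSO arrays are the controls for the fall of BMF under elraglusib, so both results rest on them. NK-92 exceeded TALL-104 (0.00274) and TALL-104 exceeded HT-29 (0.00265) only without the library.

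For BCL2L1, BCL2L2 and BID no step between neighbours in the order set the cytotoxic lines apart from the colorectal ones, though some pairs further apart were called. In NK-92 BCL2L1 was below HCT-116 (limma adjusted p = 0.0111) and HT-29 (0.00381), and BCL2L2 below HCT-116 (0.00626). BID in NK-92 was above HCT-116 (0.00123) and KM12C (0.00187). The other colorectal pairs of NK-92 were not called for these genes. BCL2L2 in TALL-104 was below HCT-116 (0.0195), and without the library also below HT-29 (0.00907) and KM12C (0.0183). BCL2L1 lay between 9.02 ± 0.12 in NK-92 and 9.70 ± 0.18 in HT-29, and no neighbours in the order were told apart. With the library TALL-104 was second at 9.66 ± 0.36, and without it first at 9.87 ± 0.04. Only without it was BCL2L1 in TALL-104 above HCT-116 (limma adjusted p = 0.0298), KM12C (0.0136) and NK-92 (0.00259). TALL-104 was not told apart from HT-29 (0.495 without it). BCL2L2 was 7.13 ± 0.06 in HCT-116, 6.90 ± 0.27 in KM12C, 6.83 ± 0.17 in HT-29, 6.66 ± 0.07 in NK-92 and 6.31 ± 0.29 in TALL-104, whose step below NK-92 was called only without the library (limma adjusted p = 0.0138). BID was 9.69 ± 0.16 in NK-92, 9.54 ± 0.22 in HT-29, 9.19 ± 0.46 in TALL-104 (8.93 ± 0.01 without the library), 8.93 ± 0.10 in KM12C and 8.89 ± 0.11 in HCT-116. HT-29 had more BID than HCT-116 (adjusted p = 0.0119) and KM12C (0.0219). Only without the library was BID in TALL-104 below HT-29 (0.0247) and NK-92 (0.00604).

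BIK, and BCL2L11 on its higher-signal probe set, had their lowest level in NK-92. BIK was 7.55 ± 0.32 in KM12C, 6.85 ± 0.11 in HCT-116, 6.34 ± 0.13 in HT-29, 6.15 ± 0.37 in TALL-104 and 6.12 ± 0.10 in NK-92. KM12C differed from HCT-116 (limma adjusted p = 0.0230) and HCT-116 from HT-29 (0.0209), while the steps from HT-29 to TALL-104 and from TALL-104 to NK-92 were not called. Without the library labelled DMSO replicate 2, TALL-104 stood at 6.35 ± 0.18, below HCT-116 (0.0348). On that probe set BCL2L11 was 7.48 ± 0.53 in TALL-104 (7.79 ± 0.04 without the library), 7.42 ± 0.07 in HT-29, 7.40 ± 0.13 in KM12C, 7.37 ± 0.10 in HCT-116 and 6.78 ± 0.09 in NK-92. The called step between neighbours was the one down to NK-92 (limma adjusted p = 0.00336). Only without the library was TALL-104 above HCT-116 (0.0371) and NK-92 (0.000932). On this probe set the colorectal lines therefore started from DMSO levels of BCL2L11 that were not told apart. With elraglusib they stood at 7.72 ± 0.09 in HCT-116, 6.81 ± 0.08 in HT-29 and 6.96 ± 0.10 in KM12C. The lower-signal probe set had another order, from 4.78 ± 0.03 in KM12C to 4.19 ± 0.12 in TALL-104, with NK-92 between them at 4.49 ± 0.25. No step between neighbours was called there, and of all its pairs only KM12C against TALL-104 was (limma adjusted p = 0.0200).

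For each member the genes with the most similar signal over the 30 arrays were listed as a description. The arrays come from only 5 lines, so the points are not independent. Nearest to BCL2 were ANKRD44, RASGRP1 and ARHGEF6 (Pearson r 0.997, 0.996 and 0.994), nearest to BCL2A1 RSAD2, UBASH3A and GALC (0.993, 0.993 and 0.992), and nearest to MCL1 TINF2, BTN3A3 and BTN3A2 (0.973, 0.968 and 0.967). BAK1 had TPST2, CD2BP2 and SH2D2A (0.984, 0.984 and 0.983) and BMF had SEMA4A, TNIP1 and GBP2 (0.982, 0.981 and 0.978). BIK had LINC02985, GLOD4 and RASL11A (0.957, 0.955 and 0.954), and BID had IL1RN, POLR1D and BMAL2 (0.947, 0.938 and 0.927). BCL2L11 had SWT1, ZNF484 and H1-10 (0.932, 0.919 and 0.915). BCL2L2 had RPGRIP1L, DLAT and EARS2 (0.923, 0.921 and 0.921), and BCL2L1 had TMEM14C, SCFD2 and CAPN1 (0.895, 0.886 and 0.885).

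Among the members themselves, BCL2 and BCL2A1 had an r of 0.96 over the 30 arrays, as had BCL2 and BAK1, and MCL1 and BCL2A1 had 0.94. BCL2L2 went against MCL1 (r = -0.81) and BCL2A1 (-0.85), BCL2L11 against BID (-0.73), and BIK against BMF (-0.76). These too rest on 5 lines, and they include the library labelled TALL-104 DMSO replicate 2.

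Lists of related genes were counted in the same way, and their counts stand against the 1.15% of all probe sets called in HCT-116, 8.01% in HT-29 (3.39% as lower) and 1.5% in KM12C. Their counts at an unadjusted p under 0.05 stand against 8612 of 67528 probe sets in HCT-116, 12508 in HT-29 and 11808 in KM12C. For NK-92 and TALL-104 that background was 2934 and 3280. In HCT-116 the effector BAX and the BH3-only PMAIP1, both p53 targets, rose, 2 of 12 measured genes of that list, while none fell. The list was drawn up with earlier results of these arrays known. BAX averaged 8.85 with elraglusib and 8.14 with DMSO (difference 0.71, limma adjusted p = 0.0265) and PMAIP1 11.37 and 10.17 (1.20, adjusted p = 0.0300), and neither was called in any fit with 1 array left out. In HT-29 they differed by 0.02 and 0.38, and there BCL2L15 (-1.35) and BNIP3L (-1.38), a mitophagy receptor, fell, with adjusted p of 0.000897 and 0.000296 and a call in every fit with 1 array left out. No gene of that list was called in KM12C, NK-92 or TALL-104, where the count at an unadjusted p under 0.05 was 4, 0 and 0.

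Of 11 measured apoptosome and caspase genes, 4 fell and 1 rose in HT-29, where 8.01% of all probe sets were called and 3.39% called as lower. The median change of the list was -0.27 there, against 0 for all probe sets. APAF1, the scaffold of the apoptosome, fell by 1.05 (8.13 with elraglusib, 9.18 with DMSO, limma adjusted p = 0.00447), the caspase gene CASP2 by 0.85 (11.87 and 12.72, 0.00203), CASP10 by 0.53 (0.0360) and DIABLO, an antagonist of the inhibitors of apoptosis, by 0.53 (0.0260). APAF1 and CASP2 were called in all 6 fits with 1 array left out, CASP10 in 1 and DIABLO in 2. CYCS, which encodes cytochrome c, rose by 0.55 (14.34 and 13.79, 0.0142, called in 4 of the 6 fits). In KM12C CASP2 fell by 0.75 (11.60 and 12.35, adjusted p = 0.04997, called in 1 of 6 such fits) and APAF1 differed by -0.77 (0.05004), on either side of the threshold. HCT-116 had no call in this list, with 3 of the 11 genes at an unadjusted p under 0.05, and NK-92 and TALL-104 had neither a call nor such a p.

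In the remaining lists, with the same shares of all probe sets called in each line, 1 gene or none was called per list and line. Of 6 measured inhibitor of apoptosis genes BIRC5, which encodes survivin, rose in HT-29 by 0.59 (limma adjusted p = 0.0456, called in 1 of 6 fits with an array left out) and differed by 0.67 in KM12C (0.0544) and -0.15 in HCT-116. Of 9 measured genes of MCL1 turnover, FBXW7, the ligase subunit that recognises MCL1 after phosphorylation, rose in HCT-116 (8.64 with elraglusib and 7.49 with DMSO, 1.15, adjusted p = 0.0186, called in 2 of 6 such fits) and differed by 0.41 in HT-29. Of 8 transcription factors known to act on members of the family, STAT3 rose in HCT-116 by 0.50 (limma adjusted p = 0.0489, called in none of the 6 fits with 1 array left out) and E2F1 fell in HT-29 by 0.97 (0.00906, called in all 6). No gene of these lists was called by limma in NK-92, where 1 gene of MCL1 turnover and 1 transcription factor had an unadjusted p under 0.05, or in TALL-104, where none had, with or without the library labelled DMSO replicate 2.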

How the data were processed

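Each of 30 HTA 2.0 arrays held one RNA sample. The authors deposited log2 signals for 67528 probe sets, summarised with the Transcriptome Analysis Console, and no source names its version, background correction or normalization. These values were analysed unchanged. For each line limma 3.58.1 (R 4.3.3) fitted treatment as the only term, with Benjamini-Hochberg adjustment over all probe sets and calls under 0.05. Differences between changes used 18 colorectal or 12 cytotoxic arrays, and DMSO levels each of 10 line pairs. Of the BCL2L11 probe sets, the one of higher mean stood for the gene. The scripts were tested on simulated data.

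Members and lists were chosen with earlier results of these data known. Values of every array were to be given for members called, or past a fold of 1.5 with p under 0.05, in a line, with group means for the rest. Those of BAK1, BCL2A1 and BCL2L2 were added after their values had been seen. Up to 4 genes of smallest p were named per list and line, further values in other lines being added later, and the 3 genes of highest r per member.

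Alternatives were quantile normalization, a filter at the 40th percentile, trended robust variances, array weights, the replicate block, 1 probe set per gene, fits over 30 arrays and, added after seeing the data, 29, the methods' t-test, the fold rule and leaving out each array. The number of arrays limits the precision. Promoters are from RefSeq (GRCh38.p14).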

Additional observations from a re-analysis of the deposited data

Results flagged for a closer look

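Among the colorectal lines, 4 differences between changes under elraglusib passed the limma test of the difference itself, and each is a contrast of 6 against 6 arrays. For BCL2L11 the change in HT-29 minus that in HCT-116 was -0.97 and the change in KM12C minus that in HCT-116 was -0.79, on the higher-signal probe set, while its other probe set had the opposite sign without passing the test (0.58 and 0.34). For MCL1 the change in HT-29 minus that in HCT-116 was -0.59. For BMF the change in HT-29 minus that in KM12C was -0.82.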

How the results depend on the processing

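Of 855 values of single members under an alternative, 823 stayed on their side of the threshold (56 of them with the other sign, neither value being called), 14 lost their call, 17 gained one and 1 called value changed sign: BCL2L11 in HT-29 was 0.54 on its other probe set (limma adjusted p = 0.116). In HCT-116, with 0 members called, quantile normalization called 1 (BCL2L2), fitting 1 probe set per gene 2 (BCL2L2 and BCL2L11), the methods' t-test at p under 0.05 2 and a fit over 29 arrays 1 (BCL2L11). In HT-29, with 3 called, a fit over all 30 arrays, with the library labelled TALL-104 DMSO replicate 2 among them, kept 1 (BCL2L11). The fit over 29 arrays, without that library, kept all 3. The methods' t-test after Benjamini-Hochberg kept 0, and leaving out 1 array between 1 and 3. In KM12C, with 0 called, array weights called 2 (BCL2L11 and BAK1), 1 probe set per gene 2 (both again), the methods' t-test at p under 0.05 2, the fit over 29 arrays 1 (BCL2L11), and leaving out 1 array between 0 and 2. In NK-92 the methods' t-test at p under 0.05 called 1. Unequal change among the colorectal lines, called for 2 members, was called for 1 (BCL2L11) with the replicate block and in the fit over all 30 arrays, and for between 1 and 3 when 1 array was left out. Same-numbered arrays did not pair (r from -0.476 to 0.212), and the replicate block left 2 calls in HT-29 and 0 in the other lines. In TALL-104 and between NK-92 and TALL-104 every alternative gave 0. The 50 called level differences ranged from 45 to 66 with 1 array left out and were 69 in the fit over 29 arrays. The share of all probe sets called under each of these alternatives is not given here. The counts of members under them are therefore not read against a background. The causes of these changes were not tested.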
